A study of Rattus norvegicus with 52 samples.

Results

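Of the 52 arrays of rat liver in the series, 16 were described here. They were taken by their source label, 8 from stained sections and 8 from entire sections, all of F344 rats that received no clofibric acid (CA, given at 0%). The series, by its title, sets whole liver beside liver obtained by laser capture microdissection, where chosen regions are cut from a stained section under a microscope. Sections are commonly stained so that such regions can be seen, and the comparison sets the arrays of stained sections beside those of whole ones. The labels do not name the stain, nor say whether a stained and an entire section came from the same rat. As another set of samples, 12 stained and 14 entire arrays of rats given CA at 0.29% or 0.54% were fitted in the same model, and single arrays of dehydrated, reference-time and microdissected liver are quoted as values.

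An array of this kind measures labelled RNA made by copying messages from their 3' poly(A) end. When messages are broken, or copying stops early, probes far from that end receive less labelled RNA than probes near it. Manufacturers therefore place separate control probe sets at the 5' end, the middle and the 3' end of housekeeping messages such as GAPDH, a glycolytic enzyme, and beta-actin, a protein of the cytoskeleton. The 3' signal over the 5' signal is a common measure of RNA integrity. Bacterial spikes (bioB, bioC and bioD, and the phage gene cre) are prepared RNAs added at the bench and do not pass through the tissue.

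The ID of a probe set tells which stretch of a database entry it was designed to. An ID with cds was drawn from the coding sequence, and one with mRNA, exon or UTR from that annotated feature. A plain ID carries the accession alone. The prefix rc_ marks probes designed to the reverse complement of the entry, a usual case for expressed sequence tags (ESTs) that were read from the 3' end of a clone. The end of the ID gives the kind of probe choice. A plain _at is unique to 1 sequence, _s_at and _f_at are shared by similar sequences or a family, and _g_at is a companion set of the same entry. Where the probes of each set lie on their message is not given in the sources used here.

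Across the 8740 non-control probe sets, stained sections gave fewer bright signals. Between 1458 and 1720 probe sets of a stained array had an intensity above 100, with a median of 1583. The entire sections had 1830 to 2010, with a median of 1910, so the groups did not overlap. The mean intensity of an array was 149 to 185 in stained and 178 to 202 in entire sections. Correlations of log2 intensity between replicates ran from 0.866 to 0.972 in stained sections, with a median of 0.919. In entire sections they ran from 0.936 to 0.987, with a median of 0.972. Replicate 7 of the entire sections stood apart from the other 7 on its GAPDH and beta-actin controls, and replicate 8 of the stained sections on its 5S ribosomal RNA intensity of 232. Stained replicate 7 also stood apart, on its bioC 3'/5' ratio and its cre levels, and had the lowest mean intensity of the stained arrays, 149. Without entire replicate 7 and stained replicate 8 the number of called probe sets was 2234, against 2150 with them. Leaving out any 1 of the 16 arrays gave 1959 to 2217.

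The control probe sets lost more signal the farther they lay from the 3' end of GAPDH. The GAPDH 3' intensity was 1244, 2102 and 2172 (lowest, median and highest) over the 8 entire arrays and 359, 748 and 1740 over the 8 stained arrays. At the middle of the message it was 217, 1716.5 and 1850 in entire and 29, 174 and 799 in stained sections. At the 5' end it was 199, 1555 and 1709 in entire and 22, 71 and 356 in stained sections. The groups overlapped at all 3 positions through entire replicate 7, the lowest entire array at each, whereas the other 7 entire arrays lay above all 8 stained ones. On the normalised log2 scale the fall was 0.97 at the 3' end (10.80 ± 0.29 to 9.83 ± 0.89, SD, n = 8 each, exact permutation test, adjusted p = 0.0149). It fell by 2.46 at the middle (adjusted p = 0.0109, exact permutation test) and by 3.39 at the 5' end (adjusted p = 0.0013, exact permutation test).

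The GAPDH 3'/5' ratio of the deposited intensities was 1.25, 1.36 and 6.25 in entire sections. In stained sections it was 4.66, 10.2 and 18.9. The ratio of 6.25 belonged to entire replicate 7, and the next highest entire value was 1.92, below all 8 stained arrays. The log2 ratio rose from 0.83 ± 0.82 to 3.25 ± 0.70 (SD, n = 8 each, exact permutation test, adjusted p = 0.0013). Stained replicates 3 and 4 had the lowest ratios of their group, 4.66 and 4.89.

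Beta-actin fell at all 3 positions, and its stained and entire arrays did not overlap at any of them. The 3' intensity was 656, 1381.5 and 1583 in entire sections and 26, 191 and 409 in stained sections. The middle was at 506, 1737 and 1960 in entire and at 11, 76 and 242 in stained sections, and the 5' end at 102, 756 and 1018 against -5, 39 and 76. The log2 differences were -2.57, -4.03 and -3.61 at the 3' end, the middle and the 5' end (exact permutation tests, adjusted p = 0.000777 for each, from the smallest p that 8 arrays against 8 can give, 0.000155). Both 3' probe sets lost signal, and that of beta-actin lost more, by -2.57 against -0.97 for GAPDH on the log2 scale. The log2 3'/5' ratio rose from 1.10 ± 0.67 to 2.13 ± 0.64 (SD, n = 8 each, exact permutation test, adjusted p = 0.0147). The 3'/5' ratios of the deposited intensities overlapped, at 1.505, 1.845 and 6.43 in entire and 1.3, 4.77 and 8.14 in stained sections. The 5' intensities of stained replicates 6 and 7, 12 and -5, lay under the floor of 20. The size of the 3'/5' rise depended on that floor, at 1.03 with it and 1.365 with a floor of 4. The log2 ratio of 3' to middle rose from -0.20 to 1.25 (adjusted p = 0.000777, exact permutation test). In bulk sections, fewer cells of a type and less RNA per cell cannot be told apart.

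**Figure D1:**
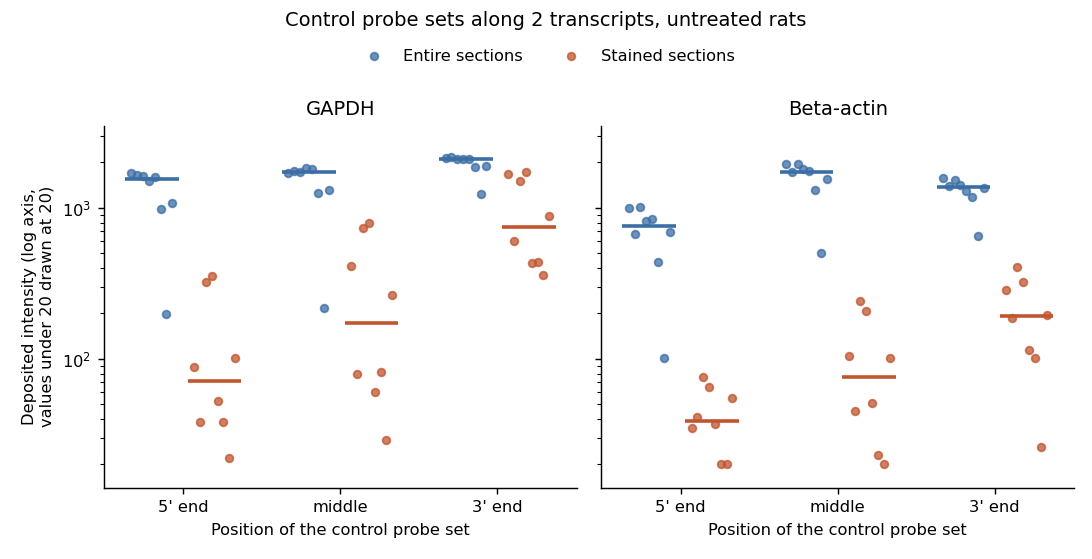
Deposited intensity on a log axis of the GAPDH (left) and beta-actin (right) control probe sets at the 5' end, the middle and the 3' end, 1 point per array, 8 entire and 8 stained arrays of untreated rats, bars at the group medians. The stained median falls from 748 at the 3' end of GAPDH to 71 at its 5' end, while the entire medians stay between 1555 and 2102, and for beta-actin the groups are apart at all 3 positions.

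The bacterial spikes ran the other way and showed no such gradient in most cases. As RNAs that do not pass through the tissue, they give no reading of the integrity of its messages. The bioB log2 signal rose by 1.56 at the 3' end, 1.77 at the middle and 1.62 at the 5' end (exact permutation tests, adjusted p = 0.00359, 0.00111 and 0.00233). The bioB 3' intensity was 99, 167.5 and 285 in entire and 109, 405 and 859 in stained sections, so the groups overlapped. The bioC signals rose by 1.22 and 1.39 and the bioD signals by 1.03 and 2.11 at the 3' and 5' ends (exact permutation tests, adjusted p = 0.0121, 0.0128, 0.00247 and 0.00111). The cre 3' signal rose by 0.53 (adjusted p = 0.0476, exact permutation test), a call that was lost in 12 of the 16 analyses that leave out 1 array, where the value lay between 0.41 and 0.70. The cre 5' difference was 0.61 (adjusted p = 0.0773, exact permutation test). These sizes are on the normalised scale. On the deposited scale the 3' rises were 1.14 for bioB, 0.91 for bioC, 1.06 for bioD and 0.85 for cre.

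The log2 3'/5' ratio of the spikes differed between stained and entire sections by -0.05 for bioB, -0.17 for bioC and -0.08 for cre (adjusted p = 0.772, 0.117 and 0.62, exact permutation tests). That of bioD fell by 1.08, from 3.16 ± 0.23 to 2.08 ± 0.50 (SD, n = 8 each, exact permutation test, adjusted p = 0.000777), opposite to the rise of the GAPDH and beta-actin ratios. On the deposited scale the bioD ratio fell by less, at -0.67 (exact permutation test, adjusted p = 0.00259). The 5S ribosomal RNA control differed by 0.55 (adjusted p = 0.273, exact permutation test), and that value was 0.18 without stained replicate 8. The probe set for the rat B1 repeat element rose by 1.16 (adjusted p = 0.00359, exact permutation test), from intensities of 11 to 49 in entire sections to 15 to 101 in stained ones.

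Staining differences were widespread among the 4773 tested probe sets. Of these, 2150 were called (45.0%), 1220 higher in stained sections (25.6%) and 930 lower (19.5%), with a median log2 difference of 0.11 over all tested. How the calls divided by direction changed with the scale. On the deposited scale, with no further normalisation, 374 probe sets were higher and 1478 lower, and the median of all tested was -0.18. Values of ID types are therefore also given relative to the median of all tested. Changes of at least 2-fold were mostly falls, 508 lower against 277 higher.

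Fitted with the log2 GAPDH 3'/5' ratio of each array as a covariate, 448 probe sets were called, 200 higher and 248 lower. That ratio differs strongly between the preparations, so this fit cannot tell the ratio and the preparation apart. Fewer calls are therefore no measure of the part of the ratio, which was not tested.

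Probe sets designed to coding sequences had the lowest median of the ID types. Of 324 tested cds probe sets, out of 640 on the array, 147 were lower in stained sections and 22 higher, 45.4% and 6.79%. Their median log2 difference was -0.39, or -0.50 relative to all tested, and their lower quartile was -1.23. At least 2-fold falls were seen in 107 and 2-fold rises in 6. On the deposited scale the cds median was -0.66, or -0.48 relative to all tested there, with 189 lower and 7 higher.

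Probe sets with the rc_ prefix lay above the median of all tested. Of 2012 tested, out of 3417 on the array, 673 were higher (33.4%) and 242 lower (12.03%). Their median was 0.25, or 0.14 relative to all tested. On the deposited scale the direction flipped, with a median of -0.08, 200 higher and 455 lower, but relative to all tested there the median was 0.10. Their place above the median of all tested was thus the same on both scales, while the sign of the difference was not. The difference between the rc_ and cds medians was 0.64 on the normalised and 0.58 on the deposited scale. It was 1.31 among the brightest probe sets, 0.20 with no filter on dim ones and 0.21 once the GAPDH ratio entered the fit.

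UTR probe sets lay above rc_ on both scales, and the plain, mRNA and exon types had medians between those of cds and rc_ on the normalised scale. UTR probe sets, 44 tested of 74, had 15 higher (34.1%) and 3 lower (6.82%). Their median was 0.28, or 0.17 relative to all tested (0.04 and 0.21 on the deposited scale). Plain accessions, 2191 tested of 4208, had 466 higher (21.3%) and 480 lower (21.9%). Their median was 0.04, which was -0.24 on the deposited scale. IDs with mRNA, 147 tested of 288, had 33 higher (22.4%) and 46 lower (31.3%) with a median of -0.03. Exon IDs, 41 tested of 89, had 9 higher (22.0%) and 10 lower (24.4%) with a median of 0.00. The plain and exon shares lay near the 25.6% higher and 19.5% lower of all tested. On the deposited scale the mRNA and exon medians were -0.36 and -0.37. The UTR and exon types are small, and their shares rest on few probe sets.

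ESTs as a class followed the prefix. The 22 tested ESTs without rc_, of 40 on the array, had 2 higher and 10 lower with a median of -0.31. They had a share of falls, 45.5%, close to that of the cds type, though the number is small. Entries that are not ESTs had 545 higher (19.9%) and 678 lower (24.75%) among 2739 tested, with a median of 0.01.

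**Figure D2:**
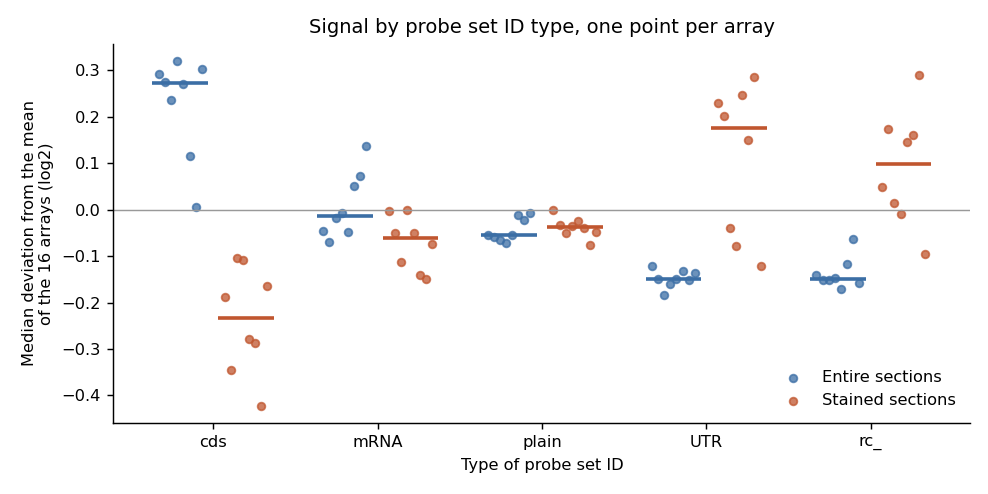
Median deviation of the log2 level from the mean of the 16 arrays, by ID type, 1 point per array and bars at the group medians, for 8 entire and 8 stained arrays. The cds type is higher in all 8 entire arrays than in any stained array, the rc_ and UTR types tend the other way, and mRNA and plain IDs overlap.

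The same order was seen array by array. The median deviation of the cds type from the mean of the 16 arrays was 0.01, 0.27 and 0.32 (lowest, median and highest) in entire sections and -0.42, -0.23 and -0.10 in stained sections. For rc_ it was -0.17, -0.15 and -0.06 in entire and -0.10, 0.10 and 0.29 in stained sections, and these overlapped. The difference of the rc_ and cds deviations was -0.47, -0.43 and -0.07 in entire and 0.07, 0.33 and 0.71 in stained sections, without overlap. Entire replicate 7 gave the value nearest to the stained arrays.

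The ID types differ in level, so the counts were repeated within bins of the mean log2 level over the 42 arrays. The share of cds probe sets that fell was 30.1% under a level of 6 (n = 166), 65.6% from 6 to 8 (n = 64), 65.4% from 8 to 10 (n = 52) and 50% at 10 or above (n = 42). Their median difference was -0.15, -1.24, -1.24 and -0.41 in these bins. Over all tested the share that fell was 15.9%, 23.1%, 25.6% and 22.7%. The share of rc_ probe sets that rose was 27.1%, 38.2%, 47.1% and 42.7%, against 20.2%, 29.7%, 35.8% and 32.5% over all tested. In each bin the cds type had more falls, and the rc_ type more rises, than the tested probe sets as a whole.

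**Figure D3:**
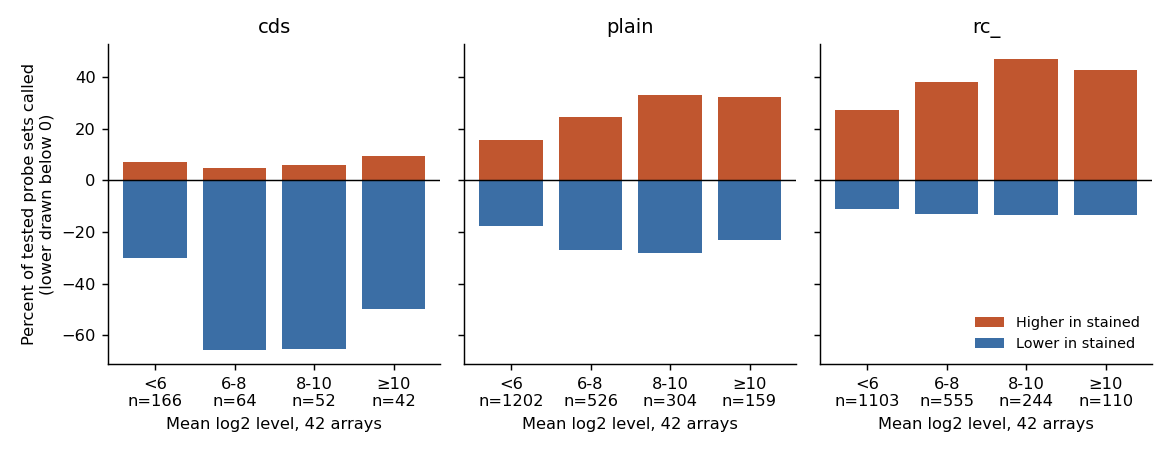
Percent of tested probe sets called higher (above 0) or lower (below 0) in stained sections, for cds, plain and rc_ IDs within 4 bins of the mean log2 level, n tested under each bar. Falls reach 65.6% of cds probe sets at levels of 6 to 8, while falls of rc_ probe sets stay between 11.0% and 13.6%.

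Complete loss of signal was rare and 1-sided. Of 1900 probe sets with a median intensity of 100 or more in entire sections, 82 (4.32%) had a median under 20 in stained sections, and 0 showed the reverse. The lost sets were 19 of 166 cds (11.4%), 3 of 16 exon (18.8%), 4 of 67 mRNA, 39 of 899 plain, 17 of 726 rc_ (2.34%) and 0 of 15 UTR probe sets. A median of 100 or more was kept in stained sections by 1446 of the 1900 (76.1%), by 62.5% of exon, 62.7% of cds, 73.1% of mRNA, 74.4% of plain, 81.1% of rc_ and 93.3% of UTR probe sets. These counts use deposited intensities and carry no test.

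The kind of probe choice also separated the sets, the plain ending aside. Over all tested, 25.6% were higher and 19.5% lower with a median of 0.11. Probe sets ending in _g_at, 633 tested, had 241 higher (38.07%) and 92 lower (14.53%) with a median of 0.28. Those ending in _s_at, 824 tested, had 167 higher (20.27%) and 247 lower (29.98%) with a median of -0.02. For _f_at, 130 tested, 26 were higher (20%) and 37 lower (28.46%). The plain ending _at, 3099 tested, had 772 higher (24.91%) and 537 lower (17.33%) with a median of 0.12. Its shares lay near those of all tested.

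Entries with a pair of probe sets allow the same message to be read at more than 1 set on the same array. The table holds 906 entries with both an _at and a _g_at set, and both were tested for 475. A limma fit of the difference within each pair called 325 pairs (68.4%). The _at set fell relative to its _g_at partner in 258 (54.3%), and the reverse held in 67 (14.1%). The median of the _g_at minus the _at difference was 0.69, and it was 0.60 on the deposited scale, where 249 pairs went one way and 64 the other. The test of single probe sets called 200 of the _at sets lower and 61 higher, and 73 of the _g_at sets lower and 184 higher. In 66 pairs the _at set fell while its _g_at partner rose.

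The direction within pairs was the same in the cds, mRNA, plain and rc_ types. The UTR and exon types hold only 6 and 5 pairs, too few to give a direction, and exon pairs were 2 against 2 in treated rats. The _at set was the lower one in 15 pairs against 3 for cds, 8 against 1 for mRNA, 136 against 36 for plain, 93 against 26 for rc_, 4 against 0 for UTR and 2 against 1 for exon IDs. Among the 194 pairs with both mean log2 levels at 6 or above, it was 140 against 23 with a median of 1.04. With the GAPDH ratio as a covariate, 65 pairs were called, 52 against 13.

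**Figure D4:**
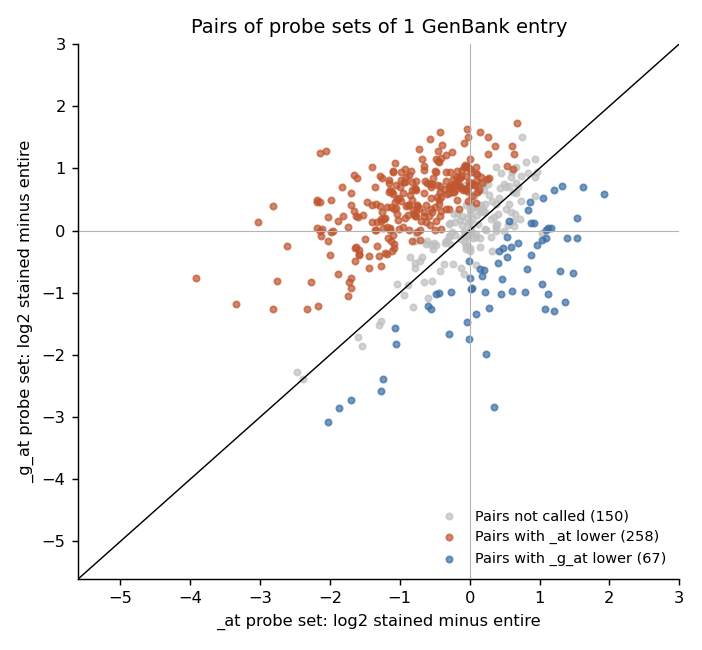
Log2 difference, stained minus entire, of the _at set (horizontal) against that of the _g_at set (vertical) for the 475 pairs, with the line of equal change. Of the called pairs, 258 lie above the line and 67 below it.

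The widest such disagreements were picked after their values were seen, 1 in each direction among pairs called with opposite signs. The intensity of d13127_at was 724, 880.5 and 1445 in entire sections and -10, 197.5 and 510 in stained sections. Its partner d13127_g_at was at 1075, 1196 and 1527 in entire and 1926, 2504.5 and 4062 in stained sections. Neither set overlapped between the groups, and the sets moved in opposite directions, by -2.14 and 1.25 on the log2 scale. The difference within the pair was 3.39 ± 0.54 (SE, limma, adjusted p = 1.36e-06), and in treated rats 2.20 (adjusted p = 2.55e-05).

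The pair of x06827 went the other way. Its _at set was at 39, 50 and 95 in entire and 67, 85.5 and 201 in stained sections, and its _g_at set at 56, 64.5 and 77 against -19, -3.5 and 46. The _at values overlapped between the groups and the _g_at values did not. The difference within the pair was -2.52 ± 0.39 (SE, limma, adjusted p = 9.55e-07).

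Several numbered coding features of 1 entry were tested for 6 entries, and no exon or mRNA entry had 2 tested numbers. The planned comparison of first and last exons could not be made. The first and last numbered coding features were compared, but the IDs do not say whether these belong to 1 message. Their differences therefore cannot stand in for positions along 1 message. All 6 differed in their staining change, by -2.35 to 2.24 on the log2 scale (exact permutation tests, adjusted p between 0.000932 and 0.0157 over the 6). The later number was the higher one in 4 entries and the lower one in 2. In d10706, features 2 and 3 changed by -2.89 and -2.47 (limma, adjusted p = 6.67e-06 and 0.000302), whereas the set d10706_s_at, which has no feature in its ID, rose by 0.53 ± 0.15 (SE, adjusted p = 0.00466).

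In j01435, a bright entry with mean log2 levels of 12.4, 13.3 and 12.4, features 1, 4 and 8 differed by -0.63, 0.35 and 0.13 (limma, adjusted p = 0.000488, 0.00363 and 0.321). In 7 entries a coding set could be set beside a set for the UTR or the poly(A) site. The coding set had the lower value in 4 of them and the other set in 3. Those 3 were all UTR sets, whose IDs do not say which end of the message they lie on. Each poly(A) set lay above its coding set. In aj012603 the coding set was at -0.35 and the UTR set at -0.54 (limma, adjusted p = 0.0860 and 0.0554). In d49494 they were at 0.09 and -0.19 (adjusted p = 0.712 and 0.565). The coding set of d00636 fell by 3.52 and its poly(A) set by 0.999 (limma, adjusted p = 1.71e-07 and 0.00678). That of d29766 fell by 1.14 (adjusted p = 1.14e-06), and its poly(A) set was at 0.08 (adjusted p = 0.714). In u07798, the last of the 3, both rose by nearly the same amount, 0.642 and 0.639 (adjusted p = 0.0168 and 0.0109).

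The probe sets with the largest called changes are given by ID, since no gene name was available for them. The set x62086mrna_s_at had intensities of 2413, 2865.5 and 3284 in entire sections. Its stained values were -109, -6 and 143, at or under the floor on 5 of 8 arrays, and the groups did not overlap. The log2 difference was -6.19 ± 0.50 (SE, adjusted p = 2.05e-12). The floor sets its size, which was -7.65 with a floor of 4 and -5.37 with a floor of 50. In treated rats the same set was at 608, 3602 and 4341 in entire and -84, 80.5 and 384 in stained sections, a log2 difference of -5.43 (adjusted p = 4.66e-14).

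The set m62832_at was at 196, 1830 and 2061 in entire sections and -59, -30 and 123 in stained sections. The lowest entire value belonged to replicate 7, and the groups did not overlap. Its log2 difference was -5.24 ± 0.65 (SE, adjusted p = 3.68e-08), with 6 of 8 stained arrays at or under the floor. It was -6.98 with a floor of 4, -4.24 with a floor of 50, and -4.11 in treated rats (adjusted p = 3.46e-08). With the GAPDH ratio as a covariate the difference was -1.16 (adjusted p = 0.0586), and over the other alternatives it stayed called.

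The largest rises started from dim signals. The set rc_ai014135_at was at 11, 31 and 63 in entire sections and 51, 258 and 783 in stained sections, overlapping at the low end of the stained values. It rose 9.33-fold, a log2 difference of 3.22 ± 0.59 (SE, adjusted p = 2.47e-05), and by 2.14 in treated rats (adjusted p = 0.000278). Its log2 difference was 3.51 with a floor of 4 and 2.34 with a floor of 50. The set x62950mrna_f_at was at 27, 46.5 and 97 in entire and 96, 216.5 and 518 in stained sections, overlapping by 1 array of each group. It rose 6.76-fold, a log2 difference of 2.76 ± 0.43 (SE, adjusted p = 2.67e-06), and by 1.25 on the log2 scale in treated rats (adjusted p = 0.00349).

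**Figure D5:**
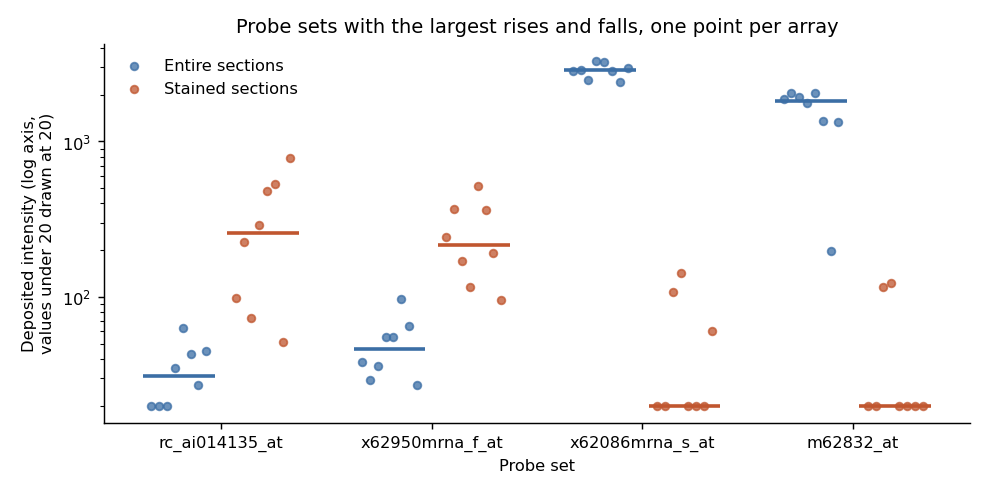
Deposited intensity on a log axis of the 2 probe sets with the largest rises and the 2 with the largest falls, 1 point per array, 8 entire and 8 stained arrays, bars at the group medians. The entire values of x62086mrna_s_at sit between 2413 and 3284, while its stained values reach 143 at most, and both rising sets overlap between the groups.

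Replicates of stained sections also varied more than those of entire sections. The median SD of log2 values was 0.457 in stained and 0.319 in entire sections for levels under 6. It was 0.569 against 0.295 from 6 to 8, 0.438 against 0.224 from 8 to 10, and 0.292 against 0.186 at 10 or above. The stained SD was the larger one for 1814 of 2597, 1049 of 1201, 577 of 640 and 262 of 335 probe sets in these bins.

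The rats given CA gave means from other arrays than the untreated comparison, although all 42 arrays shared the normalisation, the filter and the estimate of the spread. With only the 16 untreated arrays in the fit, 1984 probe sets were called in untreated rats. In the fit of all 42, 1974 were called in treated rats between stained and entire sections (41.4%), 1106 higher (23.2%) and 868 lower (18.2%). Both comparisons called 1468 probe sets in the same direction and 2 in opposite directions, and the log2 differences correlated at 0.891 across tested probe sets, which are not independent replicates. The cds type had 144 lower and 26 higher with a median of -0.28, and rc_ had 603 higher and 224 lower with a median of 0.18. Within pairs the _at set was the lower one in 249 and the higher one in 65.

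The staining difference itself differed between treated and untreated rats for 48 probe sets (1.01%), 33 with a lower and 15 with a higher value in treated rats, and for 475 at an unadjusted p under 0.05. This count was unstable, at 6 among the brightest probe sets, 18 with a floor of 4, 31 with a 2-fold minimum, 72 without entire replicate 7 and stained replicate 8, and 178 with array weights. A lower value here is a signed one and need not be a larger loss. Of the 48, 32 were also called in untreated rats, and 30 of these had a smaller absolute difference in treated rats. Those 32 were picked partly by their size in untreated rats. The GAPDH 3'/5' ratio of the treated stained arrays was 3.48, 7.32 and 10.4 at 0.29% CA and 2.59, 4.47 and 11.6 at 0.54% CA, against a median of 10.2 in untreated stained arrays.

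The single untreated arrays of the other preparations did not all lie with the stained arrays. The difference of the rc_ and cds deviations was 0.01 on the dehydrated array, -0.08 on the reference-time array, and 0.34 and 0.12 on microdissected replicates 1 and 2. The reference-time value lay within the range of the entire arrays only through replicate 7, at -0.07. It was above the next highest entire value, -0.23 in replicate 6. The dehydrated value lay between the groups and both microdissected values within the stained range. The GAPDH 3'/5' ratio was 6.36 on the dehydrated array, 7.28 on the reference-time array, and 14.3 and 9.22 on microdissected replicates 1 and 2. The set x62086mrna_s_at, at 2413 or above in all 8 entire arrays, was at 40, -88, 26 and 23 on these 4 arrays. On the dehydrated arrays of rats given CA, the difference of the rc_ and cds deviations was 0.43 at 0.29% and 0.63 at 0.54%. Both lay within the range of the untreated stained arrays, unlike the untreated dehydrated array. At the same doses it was -0.26 and 0.00 on the reference-time arrays, and -0.04 and -0.13 on the microdissected arrays. These are values of 1 array each and were not tested.

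Within the untreated groups, the pair difference and the GAPDH ratio were also compared array by array, as 4 relations. In entire sections the median pair difference had a Pearson r of 0.98 with the log2 GAPDH ratio (n = 8, permutation p = 0.000967, adjusted 0.00387) and a Spearman rho of 0.76 (permutation p = 0.0368, adjusted 0.139). Without replicates 6 and 7 r was 0.72 (permutation p = 0.132). In stained sections r was 0.70 (permutation p = 0.0639, adjusted 0.0852) with a rho of 0.69 (permutation p = 0.0694, adjusted 0.139), and 0.28 without replicates 3 and 4. For the rc_ and cds difference r was 0.90 in entire sections (permutation p = 0.0193, adjusted 0.0386) with a rho of 0.38 (permutation p = 0.36, adjusted 0.36), and -0.55 without replicates 6 and 7. In stained sections r was 0.65 (permutation p = 0.0852, adjusted 0.0852) with a rho of 0.57 (permutation p = 0.151, adjusted 0.202), and 0.38 without replicates 3 and 4. The arrays left out were the 2 of each group farthest from its median log2 GAPDH ratio. Leaving them out narrows the range of the ratio, which can lower r by itself. Each r was lower without those arrays (n = 6), and the pair difference of entire sections kept the highest r. Its permutation p of 0.132 was the lowest of the 4.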

How the data were processed

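Total RNA from rat liver sections was hybridised to one-colour oligonucleotide arrays, 1 array per sample. The deposited values are linear intensities, in whole numbers and partly below 0, as the authors processed them. Their software and scaling target were not given in the sources used here. Intensities of all 52 arrays were quantile normalised, raised to a floor of 20 and taken to log2. Quantile normalisation forces the arrays to 1 distribution, so a loss of signal shared by most probe sets appears as no change and probe sets that lost less appear higher. Of the intensities of the 16 arrays described here, 55.1% lay under the floor. A log2 difference of a dim probe set is therefore understated.

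The 42 arrays of the 6 replicated groups entered 1 model with a mean per group, fitted by limma 3.58.1 (R 4.3.3) with lmFit and eBayes and a two-sided moderated test. The 4773 of 8740 non-control probe sets above the floor on at least 8 arrays were tested. A probe set was called at a Benjamini-Hochberg adjusted p under 0.05 over all of them. For control probe sets, exact permutation tests over arrays, two-sided, were used (SciPy 1.17.1, Python 3.11.15), adjusted over 25 tests. Plots were drawn with matplotlib 3.10.9. The fit was first tested on simulated data holding known changes.

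Types were read from the probe set IDs. The table pairs no probe set with a gene, and 0 of the 7683 accessions in the IDs matched the gene table used here. Lists of pathways and of cell type markers by gene symbol could therefore not be counted. In place of named genes the text gives the 2 called IDs with the largest rise and the 2 with the largest fall, among those above the floor on all 8 arrays of the group where they are higher. The groups, the ID types and the lists were chosen with earlier results of these data known. The test of pairs of probe sets, and leaving out a pair of arrays together, were chosen after seeing the data.

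Alternatives were the deposited scale, a 2% trimmed mean, the floor before normalisation, floors of 4 and 50, no filter or only the brightest probe sets (those above the 75th percentile of mean level), only 16 arrays or all groups in the fit, array weights, another variance prior, the replicate number as a block, a covariate for the GAPDH ratio (3' over 5'), arrays left out and a 2-fold minimum. The labels do not say that the samples came from separate animals, so a p-value here reflects only how these samples vary, part of which may be technical. No batch or scan date is given.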

Additional observations from a re-analysis of the deposited data

Results flagged for a closer look

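Of 90 groups of values checked for a sample far from the others of its group, 19 held one. Chance alone gives about 1 in 20 of independent checks. These checks were not independent, since the ratios were made from levels that were also checked, so the 19 cannot be set against that share. Entire replicate 7 held 13 of the 19. Its log2 GAPDH levels were 10.13 at the 3' end, 7.46 at the middle and 7.34 at the 5' end, with ratios of 2.79 (3' to 5') and 2.67 (3' to middle). Its log2 beta-actin levels were 9.05, 8.63 and 6.47 at the same positions, with ratios of 2.58 and 0.42. Its cre 5' level was 10.43, its median pair difference -0.15 and its m62832_at intensity 196. Entire replicate 8 was apart on the B1 repeat element, at 5.11, and on the exon type, at 0.21. Stained replicate 7 was apart on the bioC 3'/5' ratio, at 0.70, and on the cre 3' and 5' levels, at 11.72 and 10.94, and stained replicate 8 on 5S ribosomal RNA, at 8.49.

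The staining difference differed between treated and untreated rats for 48 probe sets by the interaction test of the limma fit.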

How the results depend on the processing

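Of 1034 recomputed values, 969 kept their direction and their side of the threshold or stayed close. In the order untreated, treated and difference, calls were 1258, 1172 and 6 among the brightest probe sets (75th percentile of mean level), where fewer were tested, and 785, 458 and 31 with a 2-fold minimum. With the GAPDH ratio as a covariate, 448 and 890 were called for untreated and treated rats. The difference gave 18 calls with a floor of 4 and 178 with array weights. The rc_ minus cds median was 1.31 among the brightest, 0.20 with no filter and 0.21 with the GAPDH covariate, and called pairs were 165 among the brightest and 65 with that covariate. The cause was not tested. Leaving out 1 array gave 1959 to 2217, 1947 to 2054 and 38 to 69 calls, medians of 0.58 to 0.69 and 313 to 334 pairs. The cre 3'/5' difference was 0.0618 on the deposited scale, and without entire replicate 7 and stained replicate 8 it was 0.0399 and that of bioB 0.0631. The bioB value ran from -0.11 to 0.05 with 1 array left out, above 0 without entire replicate 2 (0.00829), entire replicate 7 (0.046) or stained replicate 7 (0.024). None of these passed the threshold. Without both arrays the cre 3' rise was 0.39 (exact permutation test, adjusted p = 0.144).

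Same-numbered stained and entire arrays correlated at -0.18 to 0.43 in their deviations, and 3 of 8 entire arrays best with their own number, so the numbers were not used to pair samples; the labels do not say whether they mark a shared rat. With the replicate block 2231, 1933 and 33 probe sets and 329 pairs were called.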
